A study of Mus musculus with 32 samples.

Results

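Potassium channel subunit genes were followed through 32 brain RNA libraries of mice in which ribosomes of Cre-expressing cells carry an epitope tag. The members were the genes whose symbol is Kcn followed by lower-case letters and a number, with Kcnj10 left out by rule, which gave 91 of 24411 genes in the deposited count table. They cover the pore-forming subunits of voltage-gated, inward rectifier, 2-pore and calcium-activated channels and the auxiliary subunits that bind them. A further 6 rows with a Kcn name, mostly antisense transcripts, do not match the pattern and were left out.

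All mice were of C57BL/6 background, carried the RPL22-HA (RiboTag) allele and received 5 mg of tamoxifen by gavage 4 times at 4 to 6 weeks of age. They differed in the inducible Cre, which was Sall1-CreER or Cx3cr1-CreER, named for a transcription factor gene and the fractalkine receptor gene of microglia. The brain of each of 4 mice per line gave 4 libraries, so that 8 groups of 4 were compared. The HA group was precipitated from whole-brain homogenate with an anti-HA antibody, which brings down RNA on tagged ribosomes, and the IgG group from the same kind of homogenate with an isotype control antibody, so that IgG samples background brain RNA. SortIP was the HA precipitate of microglia sorted by flow cytometry, and Sort their total RNA. For the 8 sorted Cx3cr1 libraries, titles and descriptions give opposite assignments to SortIP and Sort. Groups follow the titles here. Gene counts per library ranged from 249881 to 4047465, with the Cx3cr1 HA libraries between 286418 and 574671. Mice are the replicates.

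Potassium channels let potassium leave the cell along its gradient and so hold the membrane near its resting potential or bring it back there after excitation. Neurons use voltage-gated families (Kcna to Kcnd, Kcnq, Kcnh) to shape spikes, and astrocytes use inward rectifiers and 2-pore channels to take up and carry away the potassium that neurons release. Microglia are known to use the 2-pore channels THIK-1 (Kcnk13) and TWIK-2 (Kcnk6), the inward rectifier Kir2.1 (Kcnj2), the voltage-gated Kv1.3 (Kcna3) and the calcium-activated KCa3.1 (Kcnn4), which have been linked to surveillance, cytokine release and migration.

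Members were separated by their levels in sorted microglia and in IgG, in counts per 1e6 gene counts (CPM), with the SortIP and Sort means of a line averaged. A gene was sorted-high where sorted cells had at least 2 CPM and at least 2 times the IgG level in both lines, IgG-high where the reverse held, mixed where 1 of these groups reached 2 CPM without either pattern, and low where all stayed under 2 CPM. This gave 5 sorted-high, 56 IgG-high, 8 mixed and 22 low members. It is a description from the levels themselves and no test. The sorted-high members were Kcnk6, Kcnk13, Kcnd1, Kcnj2 and Kcnn4, of the 2-pore, Kv4, inward rectifier and calcium-activated families. All members of the Kcnab, Kcnip and Kcnt/u families were IgG-high, and so were 5 of 8 Kcna, 7 of 14 Kcnj, 5 of 14 Kcnk and 5 of 8 Kcnh genes. Just inside the sorted-high limit stood Kcnn4, at 3.14 and 6.38 times the IgG level in the Sall1 and Cx3cr1 lines, and just outside it Kcnk12, at 1.31 and 1.54 times. The plot of sorted against IgG levels shows both classes on either side of the diagonal in both lines.

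**Figure D1:**
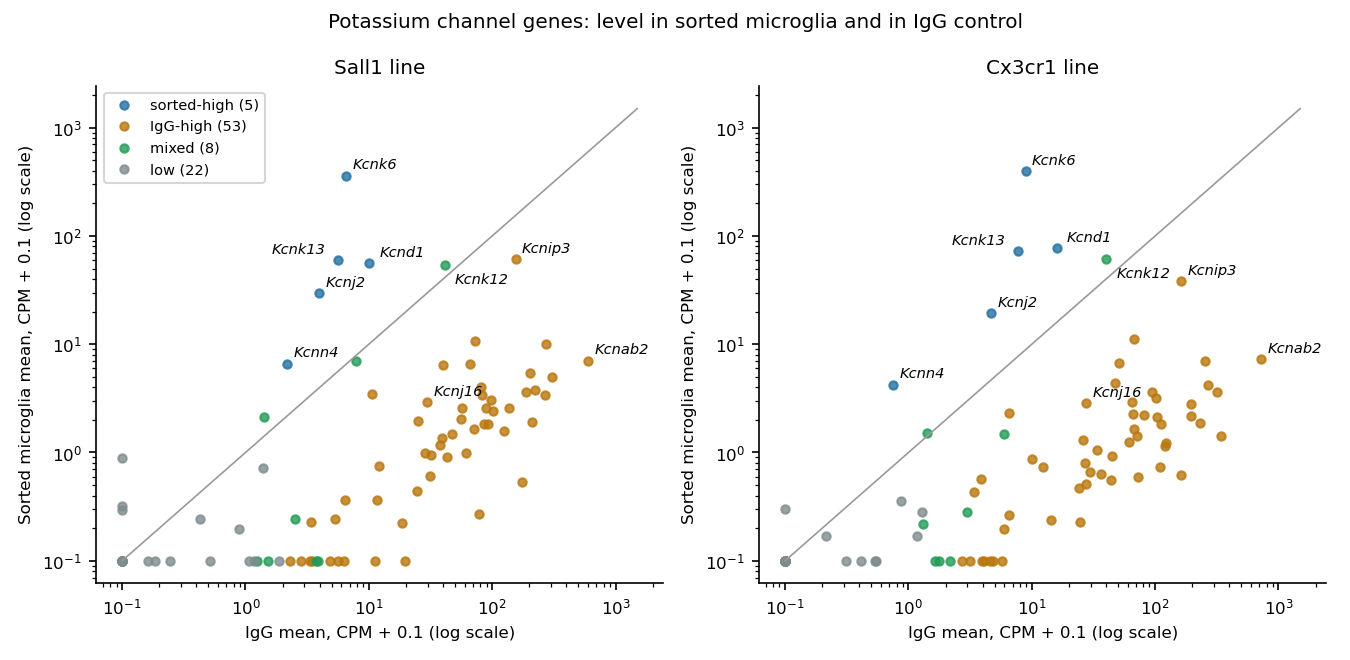
Each point is 1 of 88 potassium channel genes, with its mean level in IgG libraries (x axis) and in sorted microglia (y axis) of the Sall1 line (left) and the Cx3cr1 line (right), in CPM plus 0.1 on log scales. Colours mark the classes and the line marks equal levels: the 5 sorted-high genes lie above it, led by Kcnk6 at 360.2 CPM in Sall1 and 394 CPM in Cx3cr1 sorted cells.

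The labelled source of the sorted groups was checked against defining genes. A list of 16 microglial genes took between 6.66% and 9.70% of gene counts in the 16 sorted libraries, against 0.0953% to 0.165% in IgG, and a list of 15 neuronal genes took 0.00555% to 0.0376% in sorted libraries, against 0.894% to 1.22% in IgG. In the direct precipitates the microglial share was 0.615 ± 0.0453% for Sall1 HA and 8.38 ± 0.614% for Cx3cr1 HA (SD, n = 4 each). For the astrocyte list the shares were 0.998 ± 0.107% (Sall1 HA) and 0.0852 ± 0.00991% (Cx3cr1 HA), where IgG of these lines had 0.365 ± 0.00799% and 0.375 ± 0.0461%. For oligodendrocyte genes they were 1.10 ± 0.114% (Sall1 HA) and 0.190 ± 0.0285% (Cx3cr1 HA), against 0.501 ± 0.0573% and 0.611 ± 0.0570% in IgG. For neuronal genes they were 0.217 ± 0.0202% (Sall1 HA) and 0.153 ± 0.0381% (Cx3cr1 HA), against 1.02 ± 0.0904% and 1.07 ± 0.143% in IgG. Every gene of these 4 lists had a count in each direct precipitate group. Oligodendrocyte precursor genes (9) took 0.286 ± 0.0183% (Sall1 HA) and 0.0278 ± 0.00352% (Cx3cr1 HA), against 0.0518 ± 0.00907% and 0.0540 ± 0.0116% in IgG. Endothelial genes (10) took 0.00232 ± 0.000551% (Sall1 HA, with Slco1a4 and Tek at 0) and 0.00504 ± 0.00114% (Cx3cr1 HA), against 0.0345 ± 0.0134% and 0.0202 ± 0.00522% in IgG. These levels moved with the groups compared below, and their part in the members' values was not tested. In bulk libraries, fewer cells of a type and less RNA per cell cannot be told apart.

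Together the members took 0.230 ± 0.00531% of gene counts in Sall1 HA, against 0.608 ± 0.0508% in Sall1 IgG. Cx3cr1 HA had 0.153 ± 0.0204%, against 0.629 ± 0.0350% in Cx3cr1 IgG. In sorted cells they took only 0.0806 ± 0.00562% (Sall1 SortIP), 0.0723 ± 0.00281% (Sall1 Sort), 0.0740 ± 0.00561% (Cx3cr1 SortIP) and 0.0804 ± 0.0116% (Cx3cr1 Sort). These were the lowest shares of all groups, and most of each came from few genes. The 5 sorted-high genes made up 62.5 ± 6.77% of the members' counts in Sall1 SortIP, 71.8 ± 1.22% in Sall1 Sort, 74.3 ± 3.11% in Cx3cr1 SortIP and 72.4 ± 0.614% in Cx3cr1 Sort. Of the members' counts in Sall1 HA these genes made up 1.16 ± 0.109%, against 0.460 ± 0.0904% in Sall1 IgG, and in Cx3cr1 HA 11.9 ± 5.44%, against 0.598 ± 0.0903% in Cx3cr1 IgG.

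Kcnk6, which encodes the 2-pore channel TWIK-2, was the most abundant member in sorted microglia. Its row covers chromosome 7, 30006947 to 30017541, minus strand (NM_001033525, mm9). It had 429.6, 274, 421 and 348 CPM in Sall1 SortIP and 368, 318, 365 and 357 CPM in Sall1 Sort. Cx3cr1 cells had 351, 327, 369 and 412 CPM in SortIP and 368, 423, 368 and 533 CPM in Sort. The 4 sorted groups overlapped. In the direct precipitates the lines parted, with 6.33, 5.57, 6.99 and 7.93 CPM in Sall1 HA and 78.3, 64.2, 151 and 129 CPM in Cx3cr1 HA. Against these stood 4.26, 4.94, 8.03 and 8.50 CPM in Sall1 IgG and 7.72, 6.88, 9.42 and 11.3 CPM in Cx3cr1 IgG. Every Cx3cr1 HA library thus lay above every IgG library, whereas Sall1 HA and IgG overlapped. Per kb of the transcript length in the table, its sorted level was 92.3 CPM per kb (mean of both lines). On the same scale the mixed gene Kcnk12 had 29.5, Kcnk13 21.4, Kcnd1 17.5, Kcnj2 4.47 and Kcnn4 2.75 CPM per kb.

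Kcnk13, the gene of the tonically active microglial channel THIK-1 (chromosome 12, 101202709 to 101300892, plus strand, NM_001164426), had 55.1, 63.5, 54.1 and 52.0 CPM in Sall1 SortIP and 60.4, 79.2, 63.3 and 48.9 CPM in Sall1 Sort. Its Cx3cr1 levels were 66.3, 79.0, 74.1 and 57.9 CPM in SortIP and 69.6, 73.0, 66.1 and 88.6 CPM in Sort. All sorted libraries were above all others. The direct precipitates held 13.2, 16.7, 10.7 and 11.2 CPM in Sall1 HA and 26.1, 21.4, 43.6 and 17.5 CPM in Cx3cr1 HA, with no overlap between the lines. Sall1 IgG held 5.68, 7.16, 6.36 and 2.83 CPM and Cx3cr1 IgG 10.5, 4.05, 8.07 and 7.81 CPM, each below every HA library of its line.

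Kcnd1 encodes Kv4.1, a subunit of fast inactivating A-type channels that is usually described in neurons (chromosome X, 7400885 to 7415404, plus strand, NM_008423). It had 51.3, 48.7, 56.1 and 48.0 CPM in Sall1 SortIP, 55.2, 61.5, 59.2 and 69.4 CPM in Sall1 Sort, 78.2, 95.1, 90.1 and 83.7 CPM in Cx3cr1 SortIP and 71.8, 81.1, 54.8 and 62.0 CPM in Cx3cr1 Sort. Direct precipitates held 4.75, 4.71, 4.11 and 6.61 CPM in Sall1 HA and 36.5, 24.5, 34.4 and 41.9 CPM in Cx3cr1 HA, against 12.8, 10.6, 13.0 and 3.40 CPM in Sall1 IgG and 11.4, 17.8, 15.7 and 18.2 CPM in Cx3cr1 IgG. As with Kcnk6, HA stood clear of IgG in the Cx3cr1 line and overlapped it in the Sall1 line. The other Kv4 genes, Kcnd2 and Kcnd3, were IgG-high, with means of at most 5.22 CPM in each sorted group.

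Kcnj2 encodes Kir2.1, the strong inward rectifier that sets the resting potential of many cells including microglia in culture (chromosome 11, 110927478 to 110938139, plus strand, NM_008425). It had 30.4, 23.8, 18.4 and 8.0 CPM in Sall1 SortIP and 39.4, 22.3, 28.2 and 64.6 CPM in Sall1 Sort. Cx3cr1 cells had 25.1, 25.4, 21 and 30.5 CPM in SortIP and 13.3, 15.2, 13.2 and 10.3 CPM in Sort. Unlike Kcnk6, Kcnk13 and Kcnd1 it was nearly absent from both direct precipitates, with 0.528, 1.29, 0.411 and 0.330 CPM in Sall1 HA and 0, 0, 4.59 and 0 CPM in Cx3cr1 HA. The IgG groups held more on average, with 2.84, 4.45, 4.68 and 3.40 CPM in Sall1 and 4.54, 2.83, 4.93 and 6.08 CPM in Cx3cr1. Kcnj2 did not pass the low-count filter in HA against IgG. From summed counts (6 in Sall1 HA and 40 in Sall1 IgG) the HA over IgG ratio was 0.147, with an exact 95% interval from 0.0510 to 0.349, and in the Cx3cr1 line (2 and 42 counts) it was 0.270, with an interval from 0.0317 to 1.04. Both intervals cover counting error only.

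Kcnn4, the KCa3.1 gene (chromosome 7, 25155282 to 25170231, plus strand, NM_008433), was the weakest of the class, with 7.14 to 11.4 CPM in Sall1 SortIP, 1.31 to 6.19 CPM in Sall1 Sort, 1.79 to 4.98 CPM in Cx3cr1 SortIP and 1.89 to 7.38 CPM in Cx3cr1 Sort. These rest on 23, 21, 19 and 17 summed counts. In the direct precipitates 14 counts were found in Sall1 HA and 7 in Cx3cr1 HA, where 1 library reached 17.5 CPM. Kcna3, the Kv1.3 gene (chromosome 3, 106839080 to 106841047), had 3 counts in all 32 libraries, 1 of them in Sall1 HA and 2 in Sall1 Sort. Over the 5508784 gene counts of Cx3cr1 SortIP, 0 counts allow a level of up to 0.545 CPM (floor of 3 counts over the group). Kv1.3 transcripts were therefore not detectable in Cx3cr1 sorted microglia at this depth.

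**Figure D2:**
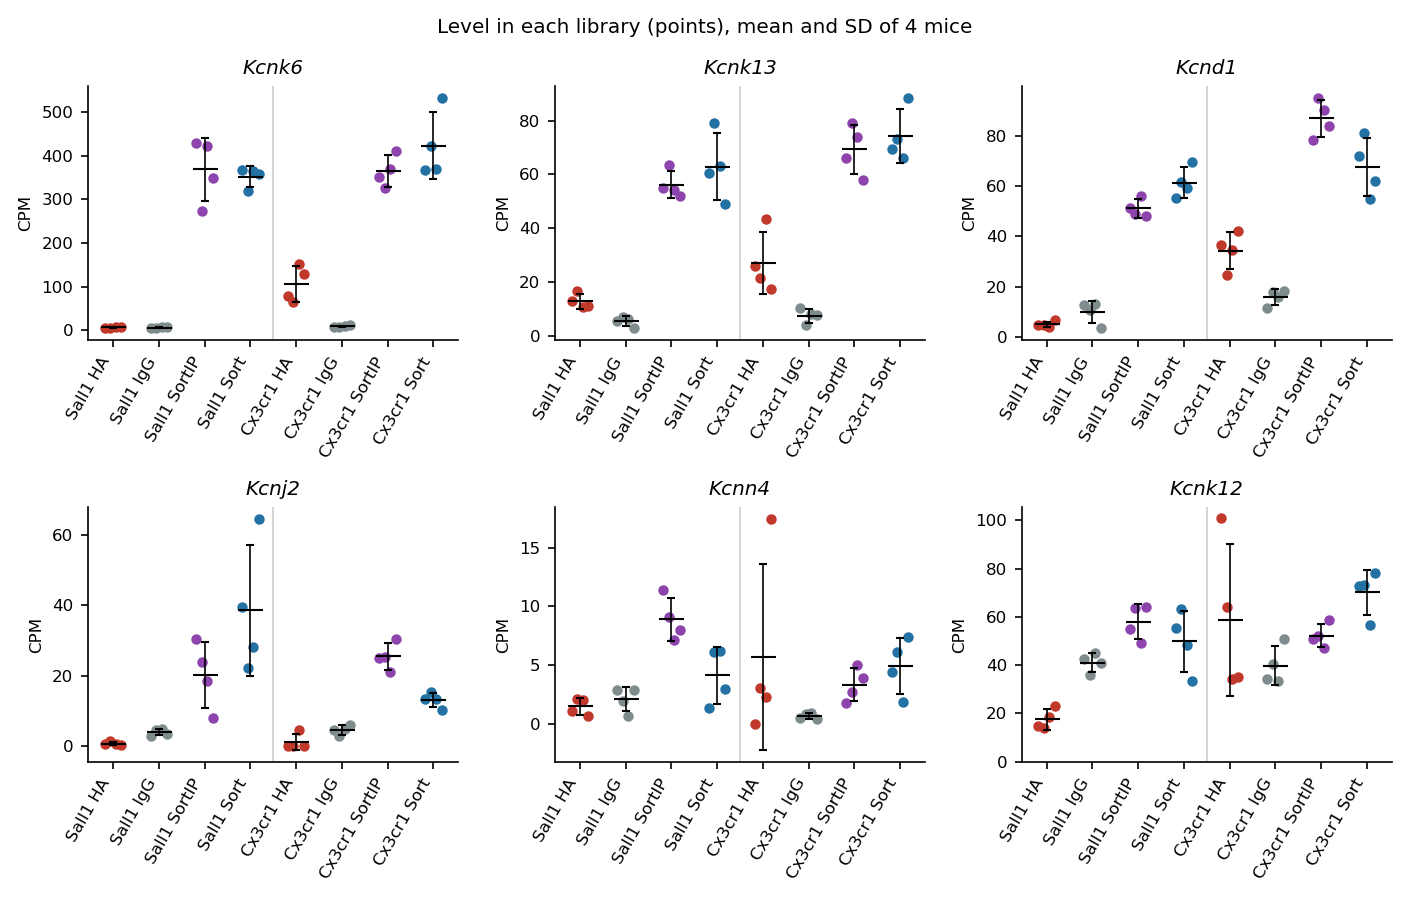
CPM of the 5 sorted-high genes and of Kcnk12 (y axes, linear, 1 scale per gene) in each of the 8 groups (x axis). Points are libraries, and black marks give the mean and SD of 4 mice. Kcnk6, Kcnk13 and Kcnd1 stand higher in Cx3cr1 HA than in Sall1 HA, whereas Kcnj2 is at or near 0 in both.

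Promoter sequence was available for 66 of the 91 members and for 3 of the 5 sorted-high genes. These 3 are shown because their transcripts are the microglial members with a known start site in the table, which holds 250 bases before and 50 bases after each start (RefSeq, build GRCm38.p6, all plus strand, 5′ to 3′). Capitals mark every match, on either strand, to 4 short motifs: GAGGAAGT (bound by the myeloid factor PU.1), CACGTG (an E-box), TGACTCA (bound by AP-1) and GGGCGG (a GC box). The intervals are chr11:111065914-111066213 for Kcnj2, chr12:99964249-99964548 for Kcnk13 and chr7:24370013-24370312 for Kcnn4.
Kcnj2: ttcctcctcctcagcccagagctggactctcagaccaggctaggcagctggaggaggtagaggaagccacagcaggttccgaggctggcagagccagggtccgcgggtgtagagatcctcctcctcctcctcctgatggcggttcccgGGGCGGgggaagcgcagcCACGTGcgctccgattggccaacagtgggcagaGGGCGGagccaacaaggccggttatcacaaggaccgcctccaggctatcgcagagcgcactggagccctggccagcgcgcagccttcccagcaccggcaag
Kcnk13: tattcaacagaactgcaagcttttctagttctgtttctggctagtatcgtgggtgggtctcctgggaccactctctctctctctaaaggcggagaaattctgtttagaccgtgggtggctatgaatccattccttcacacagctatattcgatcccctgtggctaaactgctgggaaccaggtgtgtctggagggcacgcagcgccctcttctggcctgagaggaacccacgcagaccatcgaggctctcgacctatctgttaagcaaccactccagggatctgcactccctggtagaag
Kcnn4: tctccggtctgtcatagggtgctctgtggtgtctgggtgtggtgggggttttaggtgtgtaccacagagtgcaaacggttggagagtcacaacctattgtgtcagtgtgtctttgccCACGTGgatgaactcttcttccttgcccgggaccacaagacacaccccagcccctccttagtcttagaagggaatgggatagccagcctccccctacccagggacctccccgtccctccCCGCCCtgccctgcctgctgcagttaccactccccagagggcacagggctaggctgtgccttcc
The Kcnj2 window holds 1 E-box and 2 GC boxes, that of Kcnn4 holds 1 E-box and 1 GC box, and that of Kcnk13 holds 0 matches. Among 32851 promoters of all genes, 7.15% hold CACGTG, 35.7% GGGCGG, 5.20% TGACTCA and 3.20% GAGGAAGT. GC content was 66.7% in the Kcnj2 window, 59.7% in that of Kcnn4 and 52.7% in that of Kcnk13. The matches describe these letters only.

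To ask which channel transcripts the HA antibody recovered above background, HA was compared with IgG in each line with edgeR's quasi-likelihood test and Benjamini-Hochberg adjustment over all genes tested. Fold changes are log2 values with their SE, scaled between libraries by TMM, whereas CPM values are per total gene counts. In the Sall1 line 57 members were tested, of which 8 were higher in HA and 36 lower, where 35.2% of all genes were higher and 36.1% lower. In the Cx3cr1 line 48 were tested, of which 4 were higher and 38 lower, where 28.6% of all genes were higher and 36% lower. The members' median was -0.95 in the Sall1 line and -2.05 in the Cx3cr1 line, against -0.03 and -0.28 over all genes. The IgG libraries also set the classes, so the directions of the sorted-high and IgG-high members here are not independent of their class. IgG-high members with few HA counts passed the low-count filter through IgG, where they are high. Kcnj16 and Kcnn2 are among them in the Cx3cr1 line. Nothing is therefore read from the counts of lower members. Without TMM scaling the all-gene medians were -0.44 and -0.70, the all-gene splits 2869 higher to 5427 lower (Sall1) and 2102 to 4749 (Cx3cr1), and the members' splits 6 to 43 and 3 to 42. Fold changes fell with transcript length (Spearman's rho = -0.53 over 11545 genes in the Sall1 line and -0.37 over 10021 in the Cx3cr1 line), and the tested members were long, with a median of 3801 and 3919 bases against 2938 and 2922 over all genes. With a replicate block (mouse number) and an adjustment for length the members' medians were -0.76 and -1.58, against -0.05 and -0.31 over all genes.

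In the Cx3cr1 line the higher members were Kcnk6 (3.96 ± 0.31, adjusted p = 2.24e-08), Kcnk13 (2.27 ± 0.38, adjusted p = 8.77e-05), Kcnd1 (1.51 ± 0.30, adjusted p = 4.17e-04) and Kcnk12 (1.01 ± 0.32, adjusted p = 0.0124). Kcnk6 and Kcnk13 passed the low-count filter through HA, where they are high, so their calls are a description only. Kcnd1 and Kcnk12 passed it through either group. The other 2 sorted-high genes did not pass the low-count filter. Kcnk12 encodes THIK-2, a close relative of THIK-1 that is largely silent at the cell surface, and belonged to the mixed class. It had 101, 64.2, 34.4 and 34.9 CPM in Cx3cr1 HA, against 34.1, 40.5, 33.2 and 50.8 CPM in Cx3cr1 IgG. These groups overlapped, and without HA replicate 1 the call ended (0.55, adjusted p = 0.160), as it did without scaling (0.59, adjusted p = 0.111). It also ended with the replicate block and length adjustment (0.55, adjusted p = 0.112). In the Sall1 line Kcnk12 was lower in HA, with 14.8, 13.7, 18.5 and 23.1 CPM against 42.6, 35.8, 44.8 and 40.8 CPM in IgG (-0.80 ± 0.23, adjusted p = 0.00409).

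Of the sorted-high genes tested in the Sall1 line, Kcnk13 rose (1.57 ± 0.31, adjusted p = 2.23e-04) while Kcnk6 lay at 0.43 ± 0.33 (adjusted p = 0.251) and Kcnd1 at -0.54 ± 0.38 (adjusted p = 0.206). Kcnk13 passed the low-count filter through Sall1 HA, where it is high, so its call is a description only. Kcnk6 passed with the replicate block and length adjustment (0.86, adjusted p = 0.0323). Kcnd1 passed as lower with no scaling (-0.96, adjusted p = 0.0288), with all 8 groups in one fit (-0.70, adjusted p = 0.0283) and without Sall1 IgG replicate 21 (-0.84, adjusted p = 0.0357). The summed counts gave 0.532 Kcnk6 counts per Kcnk13 count in Sall1 HA (66 and 124 counts) and 3.67 in Cx3cr1 HA (169 and 46). In sorted groups this ratio was 6.41 (Sall1 SortIP), 5.46 (Sall1 Sort), 5.36 (Cx3cr1 SortIP) and 5.66 (Cx3cr1 Sort), and in IgG 1.09 (Sall1) and 1.17 (Cx3cr1). Per library, log2 of the ratio (with 0.5 added to each count) ran between -1.55 and -0.49 in Sall1 HA and between 1.52 and 2.77 in Cx3cr1 HA. These values did not overlap between the lines, but the pair was chosen after they were seen, and no test is given. Kcnk6 levels in Sall1 HA overlapped those in IgG.

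The other members higher in Sall1 HA were IgG-high, mixed or low genes. Kcnj16 encodes Kir5.1, which forms channels with the Kir4.1 subunit in astrocytes (chromosome 11, 110858801 to 110889281, plus strand). It had 78.1, 89.5, 92.5 and 100.1 CPM in the Sall1 HA libraries, against 55.4, 19.8, 25.8 and 17 CPM in Sall1 IgG (2.17 ± 0.27, adjusted p = 2.12e-06). In the Cx3cr1 line it had 5.22, 0, 6.88 and 6.98 CPM in HA, against 34.1, 18.6, 28.3 and 29.1 CPM in IgG (-2.07 ± 0.49, adjusted p = 0.00157). The groups did not overlap in either line. Its sorted means were between 2.59 and 3.03 CPM. Kcnj16 ends 38196 bases upstream of Kcnj2 on the same strand, with 0 other rows of the table between them, so that neighbouring inward rectifier genes fell into opposite classes.

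Kcnip3, the gene of the calcium sensor calsenilin (also KChIP3 or DREAM), which binds Kv4 subunits, had 509, 461, 462 and 353 CPM in the Sall1 HA libraries, against 132, 201, 133 and 155 CPM in Sall1 IgG (1.92 ± 0.17, adjusted p = 1.71e-08). Cx3cr1 HA had 103, 128, 133 and 133 CPM, against 173, 176, 132 and 168 CPM in Cx3cr1 IgG, where the fold change was 0.01 ± 0.19 (adjusted p = 0.971). With all 8 groups in one fit that value was -0.41 (adjusted p = 0.0447). Among IgG-high genes Kcnip3 also had the highest sorted level, at 61.2 CPM in the Sall1 and 37.9 CPM in the Cx3cr1 line.

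Kcnj8 encodes Kir6.1, the pore of ATP-sensitive channels in pericytes and smooth muscle, and had 13.2, 12.4, 13.6 and 14.2 CPM in the Sall1 HA libraries, against 1.42, 5.19, 2.01 and 4.53 CPM in Sall1 IgG (2.28 ± 0.34, adjusted p = 9.71e-06). A list of 10 mural cell genes took 0.0553 ± 0.0131% in Sall1 HA, against 0.0449 ± 0.0107% in Sall1 IgG, with ranges that overlapped. In the Cx3cr1 line it took 0.00641 ± 0.00171% in HA, with Abcc9 and Anpep at 0, against 0.0288 ± 0.00280% in IgG. The part of these levels in the Kcnj8 values was not tested. Kcnk7, a 2-pore relative for which no current has been found, had 11.6, 8.14, 10.3 and 4.95 CPM in the Sall1 HA libraries, against 1.42, 0.741, 1.00 and 0 CPM in Sall1 IgG (81 and 7 summed counts). Kcne2, a small accessory subunit also known from choroid plexus, had 8.44, 8.57, 6.17 and 5.95 CPM in the Sall1 HA libraries, against 1.42, 1.24, 0.335 and 2.27 CPM in Sall1 IgG (69 and 11 summed counts). Kcnj8, Kcnk7 and Kcne2 passed the low-count filter through Sall1 HA, where they are high, so their calls are a description only. These 3 genes were below the low-count filter in the Cx3cr1 line.

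Kcnn2, a small-conductance calcium-activated channel gene, had 34.8, 42.0, 30.8 and 61.1 CPM in the Sall1 HA libraries, against 31.2, 30.4, 26.1 and 36.2 CPM in Sall1 IgG (0.87 ± 0.23, adjusted p = 0.00279). Kcnk1, the TWIK-1 gene of astrocytes and neurons, had 82.3, 76.7, 89.3 and 123 CPM in the Sall1 HA libraries, against 93.7, 70.9, 86.7 and 74.8 CPM in Sall1 IgG (0.61 ± 0.19, adjusted p = 0.00735). Both overlapped IgG and both calls ended without scaling (0.46, adjusted p = 0.0876 and 0.20, adjusted p = 0.333). The Kcnk1 call also ended with all 8 groups in one fit (0.46, adjusted p = 0.0640) and with the replicate block and length adjustment (0.25, adjusted p = 0.237). Among Cx3cr1 libraries both were lower in HA, Kcnn2 at -2.48 ± 0.50 and Kcnk1 at -1.70 ± 0.31. Kcnn2 and Kcnmb4 are among 10 members whose row overlaps a row of the opposite strand, as do Kcnd3, Kcnh3, Kcnk3, Kcnab1 and Kcnip4. The sources used here do not give the strand setting of the count, so such reads cannot be told apart.

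**Figure D3:**
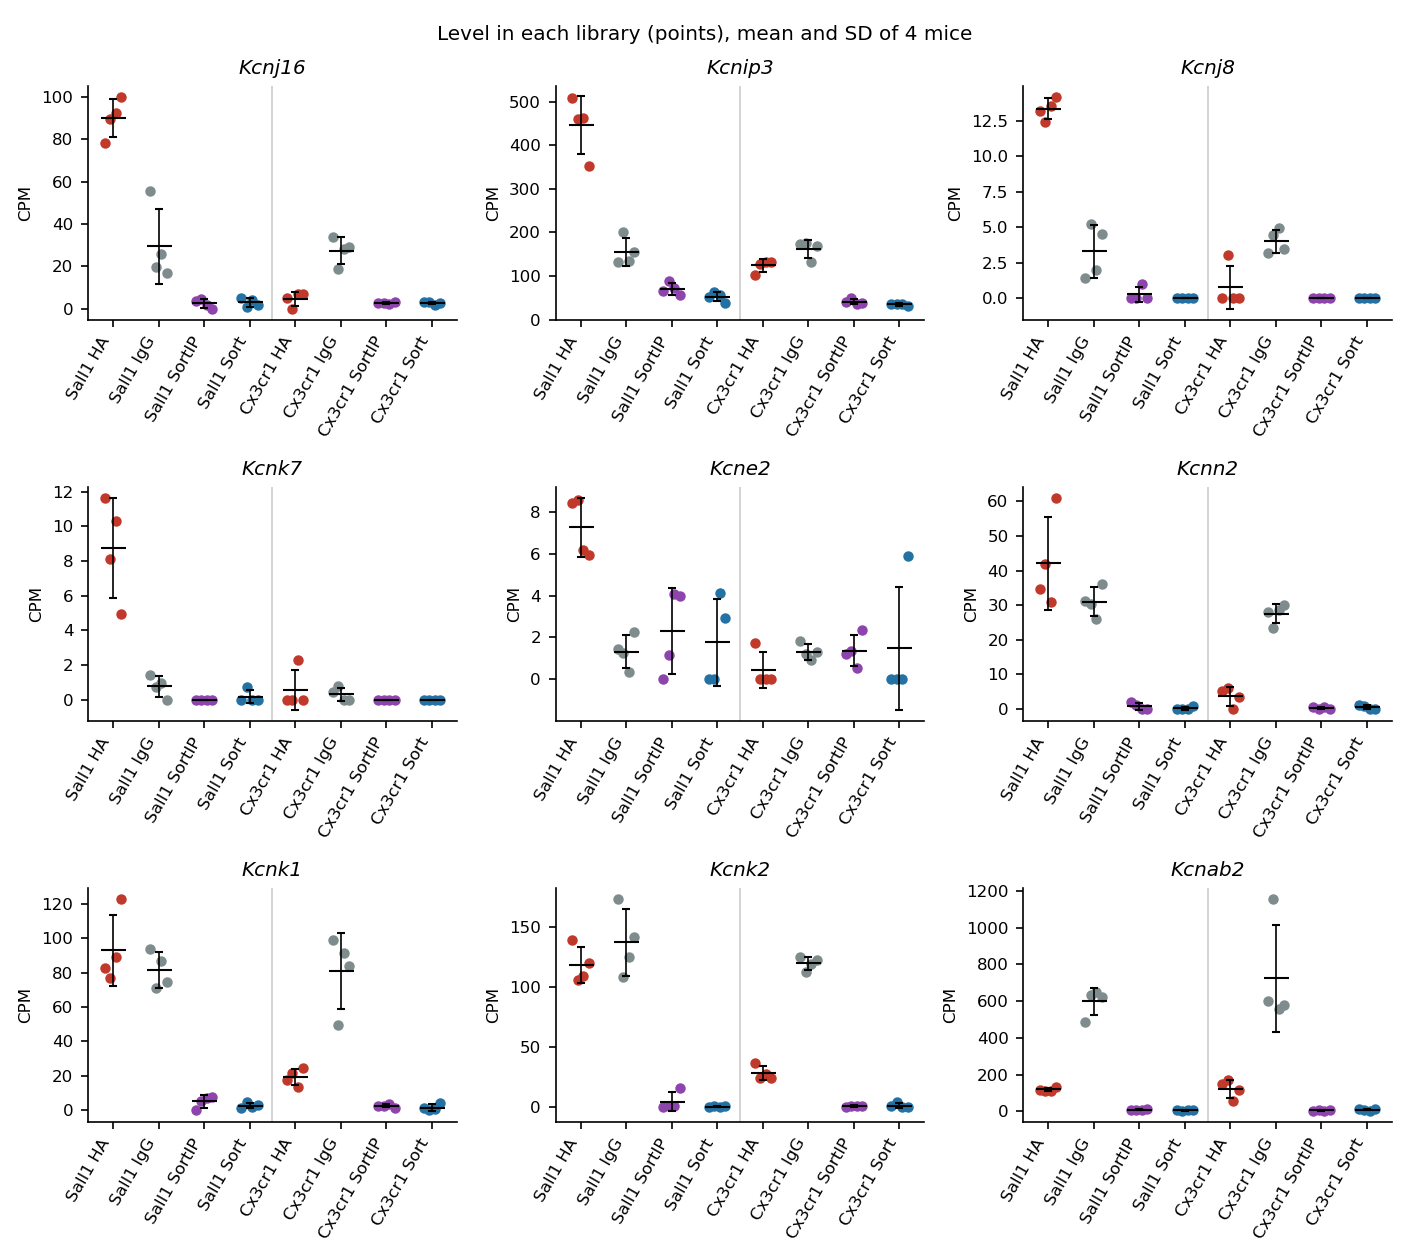
CPM (y axes, linear, 1 scale per gene) in each library of the 8 groups (x axis) for the 7 members other than Kcnk13 that were higher in Sall1 HA than in Sall1 IgG, with Kcnk2 and Kcnab2 for comparison. Black marks give the mean and SD of 4 mice. Kcnj16, Kcnip3, Kcnj8, Kcnk7 and Kcne2 stand above every IgG library in Sall1 HA but not in Cx3cr1 HA, where Kcnj16 lies between 0 and 6.98 CPM.

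Lower in HA were members of many voltage-gated families, beside the 36.1% (Sall1) and 36% (Cx3cr1) of all genes that were lower. The lower members of the Sall1 line included 3 of 5 tested Kcna, 3 of 3 Kcnab, and 5 of 5 Kcnh genes, and among Cx3cr1 libraries 4 of 4 Kcna, 3 of 3 Kcnab, and 3 of 3 Kcnh genes. The Kcnk family split, with 3 higher and 4 lower of 9 tested in the Sall1 line and 3 higher and 3 lower of 6 tested in the Cx3cr1 line. Kcnab2, the Kv beta-2 subunit gene, had 118, 112, 113 and 133 CPM in the Sall1 HA libraries, against 489, 636, 647 and 622 CPM in Sall1 IgG (-1.92 ± 0.15, adjusted p = 5.25e-09), and fell by 2.16 ± 0.33 in the Cx3cr1 line (adjusted p = 7.24e-05). Kcnd2, the Kv4.2 gene, lay at -4.46 ± 0.34 in Sall1 and -4.38 ± 0.93 in Cx3cr1. Kcnd2, Kcnma1 and Kcna4 passed the low-count filter through IgG, where they are high, as did further members of the tallies above. Their directions and these tallies are a description only. The BK channel gene Kcnma1 lay at -3.69 ± 0.32 and -2.96 ± 0.46, while its neuronal beta-4 subunit gene Kcnmb4 did not pass in either line (-0.13 ± 0.15 and -0.40 ± 0.18). Other settings called Kcnmb4 lower. In the Sall1 line it lay at -0.53 with no scaling (adjusted p = 0.00432) and -1.35 with the replicate block and length adjustment (adjusted p = 2.38e-07). For Cx3cr1 it lay at -0.82 with no scaling (adjusted p = 0.00117), -0.81 with all 8 groups in one fit (adjusted p = 7.92e-04) and -1.42 with the block and length adjustment (adjusted p = 5.42e-07). Kcna4, the Kv1.4 gene, had 0 counts in Cx3cr1 HA and 7.69 to 14.8 CPM in Cx3cr1 IgG, which with 3 counts taken as the floor of the summed HA libraries made it at least 6.53-fold lower. Its fitted fold change depends on the prior count, and with the bound in its place the members' median was -2.05.

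The difference between the lines in HA over IgG was itself tested, by an interaction term fitted to all 16 homogenate libraries, for 61 members. Enrichment was higher in the Sall1 line for 18 members and lower for 4, where 18.5% of all genes were higher and 13.7% lower. The largest positive differences of members with counts in every group were those of Kcnj8 (4.45 ± 0.94, adjusted p = 6.81e-04), Kcnj16 (4.15 ± 0.57, adjusted p = 3.99e-06), Kcne2 (3.56 ± 1.15, adjusted p = 0.0190) and Kcnn2 (3.30 ± 0.53, adjusted p = 2.64e-05), with 1 count each of Kcnj8 and Kcne2 in Cx3cr1 HA. Kcnj8 and Kcne2 passed the filter here through Sall1 HA, where they are high, so their calls are a description only. The Kcne2 call ended with DESeq2 (adjusted p = 0.0594) and without Cx3cr1 HA replicate 3 (adjusted p = 0.0501). Kcnk2, the gene of the mechanosensitive 2-pore channel TREK-1, differed by 1.79 ± 0.29 (adjusted p = 3.30e-05) and Kcnip3 by 1.88 ± 0.24 (adjusted p = 1.65e-06). The 4 lower members were Kcnk6 (-3.58 ± 0.45, adjusted p = 8.26e-07), Kcnd1 (-2.10 ± 0.49, adjusted p = 0.00160), Kcnk12 (-1.87 ± 0.40, adjusted p = 8.35e-04) and Kcnj12 (-1.22 ± 0.31, adjusted p = 0.00400), which encodes Kir2.2. The Kcnj12 call ended with all 8 groups in one fit (-0.91, adjusted p = 0.0595). The difference for Kcnk13 was -0.74 ± 0.50 (adjusted p = 0.285).

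**Figure D4:**
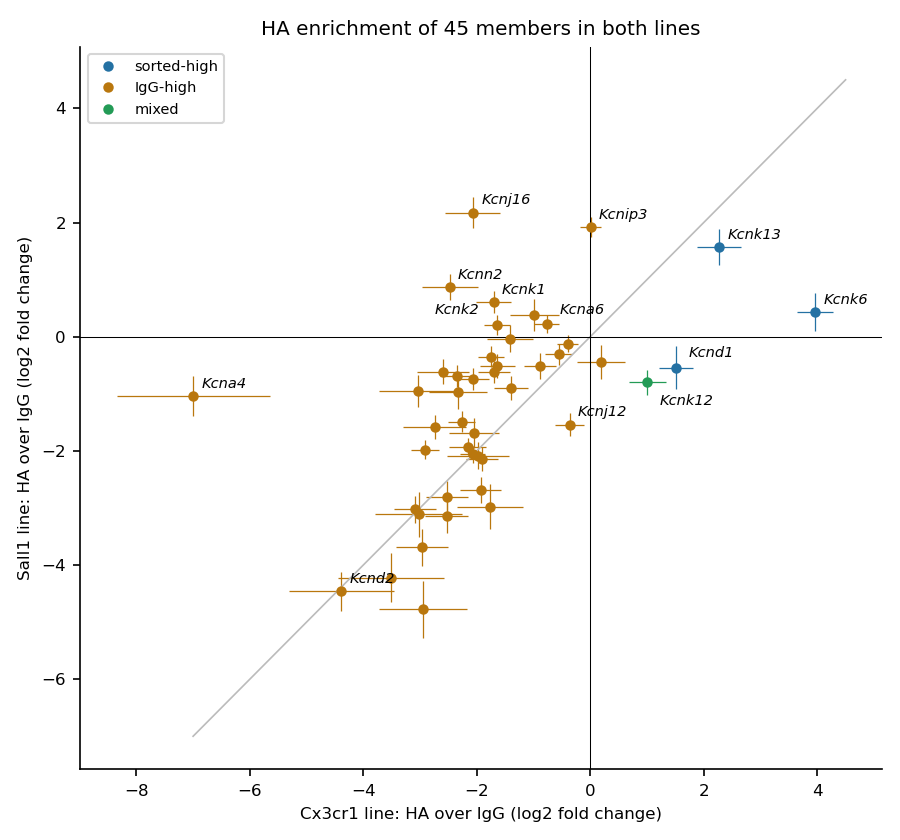
Log2 fold change of HA over IgG in the Cx3cr1 line (x axis) and in the Sall1 line (y axis) for 45 of the 48 members tested in both, with SE bars, coloured by class. The grey line marks equal values. Kcnj16 lies at 2.17 in the Sall1 and -2.07 in the Cx3cr1 line, and Kcnk6 at 0.43 and 3.96.

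Both direct precipitates were then set side by side, Sall1 HA against Cx3cr1 HA, a comparison that shares no library with the classes. Of 36 members tested, 15 were higher in Sall1 HA and 6 lower, where 27.2% of all genes were higher and 25.7% lower, and the members' median was 0.34 against 0.05 over all genes. All 3 sorted-high genes tested were lower, Kcnk6 at -4.13 ± 0.28 (adjusted p = 3.85e-12), Kcnd1 at -2.92 ± 0.32 (adjusted p = 1.84e-08) and Kcnk13 at -1.31 ± 0.32 (adjusted p = 0.00107). The mixed gene Kcnk12 lay at -1.97 ± 0.30 (adjusted p = 5.65e-06). The 32 IgG-high genes had a median of 0.52, with 15 higher, 2 lower and 15 without a call. The 4 furthest up were Kcnj8 (4.08 ± 0.78, adjusted p = 8.16e-05), Kcnj16 (3.99 ± 0.36, adjusted p = 5.53e-10), Kcnn2 (3.31 ± 0.49, adjusted p = 2.62e-06) and Kcnk1 (2.13 ± 0.27, adjusted p = 3.23e-07). For Kcnj8, with 130 counts in Sall1 HA and 1 in Cx3cr1 HA, the ratio of summed levels was 21.8 with an exact 95% counting interval from 3.84 to 867. Kcnj8, Kcnj16, Kcnn2, Kcnab3, Kcnd3, Kcnn1 and Kcnip1 passed the filter through Sall1 HA, where they are high. Kcnk6 and Kcnd1 passed it through Cx3cr1 HA, where they are high. The tallies and medians of this comparison include such genes and are a description only. The calls of the genes that passed through 1 group are likewise a description only, whereas Kcnk13, Kcnk12 and Kcnk1 passed through either group.

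Kcnk2 had 139, 106, 109 and 119.9 CPM in the Sall1 HA libraries, against 36.5, 24.5, 27.5 and 24.4 CPM in Cx3cr1 HA (1.83 ± 0.23, adjusted p = 2.49e-07), while its IgG levels were 108 to 173 CPM in the Sall1 and 112 to 124 CPM in the Cx3cr1 line. The inward rectifier genes Kcnj16, Kcnj8 and Kcnj4 were higher and Kcnj12 was lower (-1.28 ± 0.27, adjusted p = 2.86e-04), so this family split. The neuronal genes Kcnmb4 (0.03 ± 0.18) and Kcnab2 (-0.22 ± 0.23) did not pass. Kcnip1, which passed the filter through Sall1 HA, was higher (1.22 ± 0.43, adjusted p = 0.0214), though its values overlapped between the lines. The call of Kcna6 (0.49, adjusted p = 0.0411) ended without Cx3cr1 HA replicate 1, 3 or 4 or Sall1 HA replicate 7, with adjusted p from 0.0602 to 0.127 over these omissions.

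**Figure D5:**
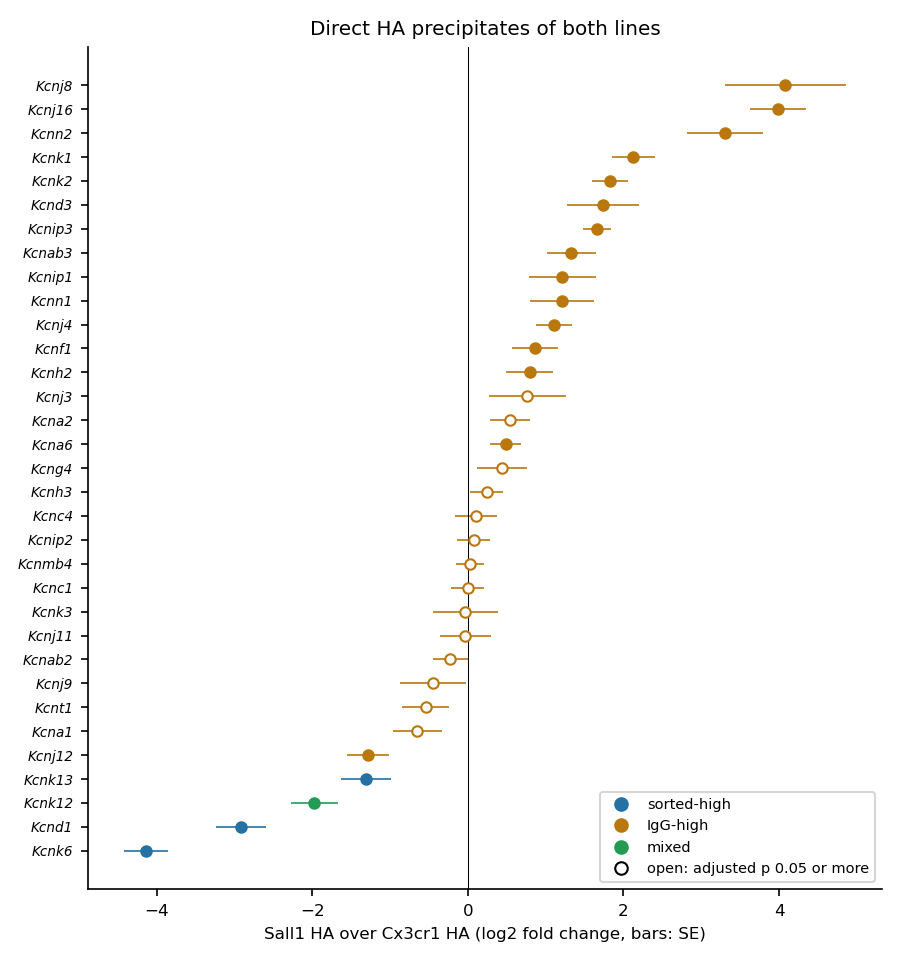
Log2 fold change of Sall1 HA over Cx3cr1 HA (x axis, bars are SE) for 33 of the 36 members tested, 1 per row, coloured by class. Filled points have an adjusted p under 0.05. The 3 sorted-high genes lie at the low end, between -4.13 and -1.31, and Kcnj8, Kcnj16 and Kcnn2 at the high end.

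The direct precipitate was compared with the precipitate of sorted microglia of the same line, which asks what differs when ribosomes are pulled from whole tissue. The SortIP libraries also set the classes, so the directions of both classes are not independent of them. In the Sall1 line 38 members were tested, and 31 were higher in HA and 6 lower, where 42.4% of all genes were higher and 37.8% lower. In the Cx3cr1 line 21 were tested, and 16 were higher and 4 lower, where 32.6% of all genes were higher and 37.5% lower. IgG-high members with few SortIP counts passed the low-count filter through HA, where they are high, so nothing is read from these counts. All 5 sorted-high genes were lower in Sall1 HA, Kcnk6 at -5.59 ± 0.23, Kcnj2 at -4.80 ± 0.48, Kcnd1 at -3.16 ± 0.28, Kcnn4 at -2.39 ± 0.48 and Kcnk13 at -1.98 ± 0.25. Of these, Kcnk6, Kcnj2, Kcnd1 and Kcnn4 passed the filter through SortIP, where they are high, so their directions are a description only. Kcnk13 passed it through either group. In Cx3cr1 HA, Kcnk6 (-1.56 ± 0.22, adjusted p = 1.79e-06), Kcnd1 (-1.09 ± 0.23, adjusted p = 2.26e-04) and Kcnk13 (-1.06 ± 0.27, adjusted p = 0.00133) were lower too. The microglial list took 8.38 ± 0.614% of counts in Cx3cr1 HA and 7.15 ± 0.361% in Cx3cr1 SortIP, a difference that was not tested. Kcnj2 passed the filter in the Cx3cr1 line through SortIP. With 2 counts in Cx3cr1 HA and 138 in SortIP, its ratio of summed levels was 0.0492 with an exact 95% counting interval from 0.00590 to 0.181. Kcnk12 lay at 0.48 ± 0.29 in the Cx3cr1 line (adjusted p = 0.142) and at -1.53 ± 0.24 in the Sall1 line (adjusted p = 4.35e-07).

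Within sorted cells, SortIP was compared with Sort to set ribosome-bound against total RNA. In the Sall1 line 6 members were tested and edgeR called 0 in either direction, where 5.45% of all genes were higher and 5.08% lower. At an unadjusted p under 0.05, 1 member was higher and 0 lower, and DESeq2 called 0. For the Cx3cr1 line 7 were tested, and Kcnj2 was higher in titled SortIP (0.82 ± 0.25, adjusted p = 0.0386) and Kcnk12 lower (-0.55 ± 0.17, adjusted p = 0.0405), where 6.36% of all genes were higher and 6.45% lower. Kcnj2 levels did not overlap, whereas those of Kcnk12 did. With groups by description both signs turn (-0.82 and 0.55). In the Sall1 line, where labels do not conflict, Kcnj2 lay at -0.67 ± 0.35 (adjusted p = 0.233) and Kcnk12 at 0.33 ± 0.22 (adjusted p = 0.360). Both Cx3cr1 calls ended with DESeq2 (adjusted p = 0.105 and 0.0653) and when any of 6 libraries was left out (adjusted p from 0.0559 to 0.120 for Kcnj2 and from 0.0624 to 0.108 for Kcnk12).

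To compare the microglia of the lines, both sorted libraries of each mouse were summed, which does not depend on the conflicting labels. Of 12 members tested, 1 was higher in Sall1 sorted cells and 0 lower, where 1.62% of all genes were higher and 1.05% lower. This was Kcnip3 (0.66 ± 0.16, adjusted p = 0.0410), whose values overlapped between the lines and whose call ended with DESeq2 (adjusted p = 0.0526) and without any of 6 mice (adjusted p from 0.0883 to 0.141). At an unadjusted p under 0.05, 3 members were higher and 2 lower, and DESeq2 called 2 higher and 0 lower. The 5 sorted-high genes did not pass, with Kcnk6 at -0.10 ± 0.11, Kcnk13 at -0.20 ± 0.14, Kcnd1 at -0.42 ± 0.12 (adjusted p = 0.0807), Kcnj2 at 0.69 ± 0.24 and Kcnn4 at 0.61 ± 0.34. The difference of Kcnk6 in the direct precipitates (-4.13) thus had no counterpart of that size in sorted cells.

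Other genes of potassium handling were taken from a list of 27, made of sodium pump subunits and their FXYD regulators, cation-chloride cotransporters, HCN channels and channel-associated proteins. In Sall1 HA against IgG, 22 were tested, 6 were higher and 12 lower, where 35.2% of all genes were higher and 36.1% lower. Fxyd1, a pump regulator also called phospholemman, was higher at 2.20 ± 0.21 (adjusted p = 5.86e-08), as was the pump subunit gene Atp1b2 at 1.77 ± 0.20 (adjusted p = 4.35e-07). Dpp10, which encodes a Kv4 auxiliary subunit (-3.73 ± 0.45, adjusted p = 1.25e-06), and Abcc8, the gene of the ATP-sensitive channel subunit SUR1 (-2.97 ± 0.25, adjusted p = 1.30e-08), were lower. Dpp10 passed the low-count filter through IgG, where it is high. In Cx3cr1 HA against IgG, 20 were tested, and 17 were lower and 1 higher, where 36% of all genes were lower and 28.6% higher. The higher one was Atp1b3 (0.92 ± 0.20, adjusted p = 8.16e-04). Between the direct precipitates 13 of 19 were higher in Sall1 HA and 2 lower (27.2% and 25.7% of all genes), with Fxyd1 at 3.91 ± 0.32 and Atp1b2 at 2.26 ± 0.23. Fxyd1 passed the filter there through Sall1 HA, where it is high, so its call and this tally are a description only.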

How the data were processed

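Libraries were made from polyA RNA, per the labels. The deposited values are exon read counts per gene that the authors did not normalize. HISAT 0.1.5, HOMER, bcl2fastq and build mm9 are named in the submitters' processing notes. How multiply mapped reads were handled is not stated there. The members and lists were chosen with earlier results of these data known.

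Each comparison was fitted over all genes with edgeR 4.0.16 (R 4.3.3; robust quasi-likelihood, TMM, default low-count filter) on the compared groups, and genes with an adjusted p (Benjamini-Hochberg) under 0.05 were called. Alternatives were DESeq2 1.42.0, no scaling, no filter, all 8 groups in one fit, a length adjustment, a replicate block, groups by description and leaving out each library. The block is the mouse number, since per the series' design text libraries of a number come from 1 brain. Over 48 such pairs, deviations from group means correlated with r from -0.11 to 0.22 (median 0.04). Within groups, every pair of libraries differed by more than sampling noise (chi-square over degrees of freedom 1.58 to 22.5). Named genes are the sorted-high members, the 4 largest called changes per direction and comparison at mean log2 CPM 3 or more, the most abundant IgG member per family, and known microglial channels. Others named were chosen after their values were seen. Intervals and floors cover counting error only. Results of some genes are not reported here or drawn.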

Additional observations from a re-analysis of the deposited data

Results flagged for a closer look

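Among 136 groups of 4 libraries with at least 20 counts of a named member, 6 held a library far from the other 3. Chance gives about 1 in 20, and these 6 are not above that share. Kcnab2 had 489 CPM in Sall1 IgG replicate 7 (the others had 622 to 647) and 1158 CPM in Cx3cr1 IgG replicate 2 (others 555 to 603), where Kcng4 also stood high at 88.6 CPM (others 57.0 to 62.2). Kcnip3 had 103 CPM in Cx3cr1 HA replicate 1 (others 128 to 133), Kcnmb4 109 CPM in Sall1 HA replicate 21 (others 137 to 139) and Kcnma1 9.50 CPM in Sall1 HA replicate 7 (others 3.70 to 3.96).

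For 22 of the 61 members tested, the interaction test called a difference between the lines in HA enrichment over IgG. Higher in the Sall1 line were 29.5% of tested members and 18.5% of all genes, and lower were 6.56% and 13.7%. The positive differences (Sall1 minus Cx3cr1, log2) were 6.33 for Kcna4, 4.45 for Kcnj8, 4.15 for Kcnj16, 3.56 for Kcne2, 3.30 for Kcnn2, 2.26 for Kcnk1, 2.06 for Kcnb2, 1.94 for Kcnd3, 1.88 for Kcnip3 and 1.79 for Kcnk2. They were 1.61 for Kcnab3, 1.37 for Kcnj4, 1.33 for Kcnn1, 1.27 for Kcnh2, 1.09 for Kcng4, 1.03 for Kcnf1, 0.95 for Kcna6 and 0.88 for Kcna2. The negative differences were -1.22 for Kcnj12, -1.87 for Kcnk12, -2.10 for Kcnd1 and -3.58 for Kcnk6. That of Kcna4 rests on 0 counts in Cx3cr1 HA and depends on the prior count, and those of Kcne2 and Kcng4 were not called with DESeq2 (adjusted p = 0.0594 and 0.0591). Kcnj8 and Kcne2 passed the filter through Sall1 HA, where they are high.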

How the results depend on the processing

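Depth limits which members could be tested: in Cx3cr1 HA, 43 of 91 did not pass the filter against IgG and 70 against SortIP. With all 8 groups in one fit, members higher in Sall1 HA than IgG numbered 5 (8 in the reported fit). In HA against SortIP, members higher in the Cx3cr1 line (16 as reported) numbered 37 with DESeq2, 42 with no filter and 37 with all 8 groups, and 49 with no filter in the Sall1 line (31 as reported). These alternatives tested more or other genes. No share over all genes is given for the alternatives in this section. Its counts describe how calls depend on settings and are not read as results about the members. In Cx3cr1 SortIP against Sort, 1 member was higher and 1 lower. The higher count was 0 with DESeq2, with all 8 groups and with the replicate block and length adjustment. The lower count was 0 with no scaling, DESeq2, no filter and all 8 groups. Leaving out a library gave between 0 and 1 for each. In Sall1 SortIP against Sort, 4 were higher with no filter and 2 with all 8 groups, against 0. Between summed sorted cells, 2 were higher with DESeq2, 3 with no filter and between 0 and 3 without 1 mouse, against 1. Signs turned for Kcna6 in Cx3cr1 HA against IgG (0.029 with the replicate block and length adjustment), Kcnip3 there (-0.41 with all 8 groups) and, with groups by description, for Kcnj2 (-0.82) and Kcnk12 (0.55) in Cx3cr1 SortIP against Sort. The cause of these changes was not tested. With the replicate block alone, members called in HA against IgG were 8 higher and 37 lower in the Sall1 line and 4 higher and 39 lower in the Cx3cr1 line, and the block ended no call of a named gene. Of 122 called values of named genes, 106 kept their direction and call in every alternative. Class sizes ranged from 4 to 5 (sorted-high) and from 48 to 62 (IgG-high) with other limits.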

Other observations

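Kcnmb4, the neuronal BK beta-4 subunit gene, lay at a similar level in both direct precipitates, with 137, 139, 138 and 109 CPM in Sall1 HA and 113, 97.9, 112 and 126 CPM in Cx3cr1 HA. The IgG libraries had 166 to 199 CPM in the Sall1 and 169.6 to 229 CPM in the Cx3cr1 line, and the 16 sorted libraries 0 to 7.60 CPM. All HA libraries lay below all IgG libraries of their line in CPM. Its row overlaps 2 rows of the opposite strand.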
